A study of Mus musculus with 9 samples.

Results

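The cells described here were retinal myeloid cells that carried transcripts of MHC class II genes and none of 8 transcripts typical of microglia. They were selected on the readout itself. A barcode was counted in the library where its total of unique molecular identifiers (UMIs, each standing for 1 captured transcript) was highest, where 200 or more genes had to be detected and fewer than 10% of the UMIs could be mitochondrial. It needed at least 3 UMIs over the pan-myeloid genes Ctss, Fcer1g, Laptm5 and Tyrobp, at least 2 UMIs over the class II genes H2-Aa, H2-Ab1, H2-Eb1 and Cd74, and 0 UMIs of P2ry12, P2ry13, Siglech, Tmem119, Sparc, Cx3cr1, Gpr34 and Olfml3. Of 1365 different barcodes, 851 passed quality control, 748 of these were myeloid, and 100 met every condition.

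The retinas came from female Arr1-/- mice, in every group. These mice lack visual arrestin, so their photoreceptors die in light, and they were reared in darkness. They stayed in the dark (day 0) or lived under room lighting of about 200 lux without dark periods for 7 days or for 20 days. Live CD45+ CD11b+ cells were sorted and captured in droplets with 10x Genomics 3′ version 2 chemistry, in 3 libraries for each day, and no Arr1 wild-type library is part of the comparisons. The labels do not say whether the libraries of a day came from separate animals, so spreads and p-values describe variation between libraries, which may be technical. Sag, the arrestin gene deleted in these mice, had at most 2 UMIs in any library and 1 UMI in the 100 cells, although 3′ reads do not test a deletion outside the part they cover.

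MHC class II molecules are surface dimers that present peptides from endocytosed proteins to CD4+ T cells. H2-Aa and H2-Ab1 encode the 2 chains of one dimer and H2-Eb1 the beta chain of another, while Cd74 encodes the invariant chain, which guides class II molecules to the endosome and fills the peptide groove until it is cleaved. Resting microglia make little class II and are recognised by purinergic receptors such as P2ry12, by Tmem119 and by the fractalkine receptor Cx3cr1, whereas macrophages that arise from blood monocytes, dendritic cells and activated microglia can all make class II.

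Class II genes are transcribed through a shared promoter module whose Y box carries an inverted CCAAT sequence. The stretches around it are shown because transcripts of these genes define the cells. Both come from the RefSeq promoter table on GRCm38.p6, 5′ to 3′ on the gene's own strand, with the letters CTGATTGG in capitals. That of H2-Aa lies on the minus strand at chr17:34287837-34287904, and its capitals begin 51 bases before the annotated start. That of H2-Eb1 lies on the plus strand at chr17:34305775-34305842, and its capitals begin 62 bases before the start.
H2-Aa: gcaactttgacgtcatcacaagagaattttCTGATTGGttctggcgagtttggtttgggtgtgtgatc
H2-Eb1: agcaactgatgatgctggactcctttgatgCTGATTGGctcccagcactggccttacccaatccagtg

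CTGATTGG or its reverse complement occurred in 4.1% of the 32851 promoter windows of 300 bases in that table. Of the 20 class II genes and class II pathway genes listed, 13 were in the table and 3 of these held the letters, H2-Aa, H2-Eb1 and H2-Oa, while H2-DMa, H2-DMb1 and H2-Ob did not. A match of letters is a description of the sequence and not a measured binding site. No sequence is shown for H2-Ab1 and Cd74.

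Libraries shared cell barcodes. The 5022 barcode entries held 1365 different barcodes, of which 612 occurred in more than 1 library and 270 in all 9. Of the 100 cells, 60 carried a barcode that other libraries listed too, as did 522 of all 748 myeloid cells. The shares and, where enough cells were left, the gene levels are therefore given below without such barcodes as well. The libraries held 247290 to 441678 UMIs and 435 to 681 barcodes before barcodes were assigned. After assignment, day 7 replicate 3 kept 16 myeloid cells and day 20 replicate 3 kept 31, against 67 to 193 in the other libraries.

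The name of the population refers only to the 8 genes that chose it, which were at 0 by the rule. UMIs of other genes that microglia use were found in the cells. Over 18 other genes often used to mark microglia, the 100 cells held 2502 UMIs, and 3 of the 18 genes were at 0. Cst3, the secreted protease inhibitor cystatin C, was detected in 96 of the cells and the complement genes C1qb and C1qa in 93 and 91. Macrophages can express these genes as well. Of the 103 barcodes that passed quality control with fewer than 3 pan-myeloid UMIs, 85.4% held Cst3, 54.4% C1qb and 48.5% C1qa. Their median depth was 540 UMIs, against 979 in the 100 cells. Of the 103 barcodes, 56 came from day 0, against 3 of the 100 cells, and these percentages were not split by day. How much of these transcripts in the 100 cells was free RNA from the droplets was not tested. The cells are therefore called class II cells without microglial UMIs, after the rule. Myeloid cells that met the class II condition and had at least 1 UMI of the 8 genes are called hybrid cells (244), and those with at most 1 class II UMI and at least 1 microglial UMI class II-low microglial cells (340). A further 64 myeloid cells had at most 1 class II UMI and no microglial UMI. Barcodes that other libraries listed too were carried by 202 of the 244 hybrid cells and 240 of the 340 class II-low microglial cells.

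Cells close to the limits of the rule were common. Among the 100 cells, 17 had exactly 2 class II UMIs, and 28 cells with 1 class II UMI and no microglial UMI stood just outside, with a median depth of 559.5 UMIs against 610 in those 17. On the microglial side, 72 of the 244 hybrid cells were excluded by a single microglial UMI, at a median depth of 1021 UMIs. On the pan-myeloid side, 9 of the 100 cells had exactly 3 UMIs, and 5 barcodes under that limit met all other conditions.

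The first question was how these cells were distributed over the libraries and days. At day 0 they were nearly absent under the rule as given. They made up 1 of 97 myeloid cells in replicate 1 (1.03%), 2 of 107 in replicate 2 (1.87%) and 0 of 71 in replicate 3. There a count of 0 allows a share of up to 4.23%, taken as 3 cells of 71, and the Clopper-Pearson interval reaches 5.06%. At day 7 they made up 45 of 193 (23.3%), 20 of 72 (27.8%) and 4 of 16 myeloid cells (25%). At day 20 they made up 14 of 67 (20.9%), 12 of 94 (12.8%) and 2 of 31 (6.45%). The 3 groups of libraries did not overlap, and the highest share at day 0 lay below the lowest after light.

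Averaged over libraries, these cells made up 0.967% ± 0.936 without light, 25.4% ± 2.25 after 7 days and 13.4% ± 7.24 after 20 days (mean ± SD of 3 libraries). The 6 libraries after light exceeded the 3 at day 0 by 18.4 percentage points (two-sided exact permutation test, p = 0.0119, the smallest that 84 arrangements allow, and 0.0476 after adjustment over the 4 comparisons of shares). The adjusted value stayed below 0.05 in 3 of 17 alternatives and in 0 of the 9 that left out 1 library. Day 7 exceeded day 0 by 24.4 points and day 20 exceeded day 0 by 12.4 points, while the difference of day 20 from day 7 was −12.0 points. That last difference was −3.56 points with every deposited entry counted and −6.66 points with a class II minimum of 4 UMIs (exact permutation p = 0.2 for each), and the libraries of day 7 and day 20 overlapped under both. With every deposited entry counted, day 7 exceeded day 0 by 9.92 points and day 20 exceeded day 0 by 6.36 points. Each of the 3 pairs of days, under the rule as given, had an exact permutation p of 0.1, which is the smallest that 3 libraries against 3 can give. The class II genes were already known to be higher after light in these libraries when the rule was written, so these tests are not independent evidence of that rise.

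**Figure D1:**
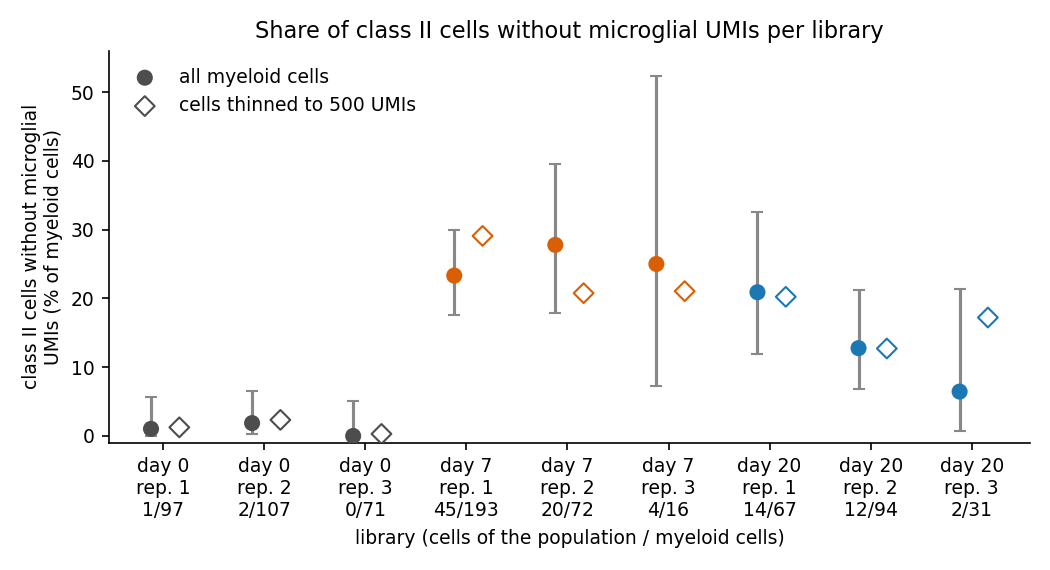
Percent of myeloid cells that were class II cells without microglial UMIs in each of the 9 libraries, with exact (Clopper-Pearson) 95% intervals that cover counting error only (filled circles), and the same percent after each cell was thinned to 500 UMIs (open diamonds). Among the filled circles, the day 0 libraries lie at or below 1.87% and the libraries after light between 6.45% and 27.8%.

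The counting intervals were wide in the small libraries. The 95% interval (Clopper-Pearson, counting error only) was 7.27% to 52.4% in day 7 replicate 3 and 0.791% to 21.4% in day 20 replicate 3, against 17.5% to 29.9% in day 7 replicate 1. Among barcodes found in 1 library only, which held 40 of the 100 cells, the difference after light was 19.7 points but passed no threshold (exact permutation p = 0.0833), at 0%, 5% and 0% of the myeloid cells in the day 0 libraries, 27.2%, 25% and 33.3% in those of day 7 and 26.3%, 16.7% and 0% in those of day 20, each in the order of the replicates. When every barcode was counted in every library that listed it, the difference was 8.14 points. The shares were then 4.63%, 4.52% and 8.5% at day 0, 19.3%, 14.9% and 13.2% at day 7 and 14.1%, 13.2% and 9.40% at day 20. When 1 microglial UMI was tolerated, the difference was 31.3 points. With 500 detected genes per cell required, the share was 0% in every day 0 library, 17.6%, 40.9% and 37.5% in those of day 7 and 9.09%, 3.85% and 0% in those of day 20.

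Cell depth was checked because a shallow cell can miss the 8 microglial genes by chance of sampling. The 100 cells had a median of 979 UMIs (interquartile range 585.5 to 1295), against 1508 in hybrid cells, 876 in class II-low microglial cells and 531.5 in the 64 myeloid cells with at most 1 class II UMI and no microglial UMI. Their median depth per library was 1052, 1179.5 and 1313.5 UMIs at day 7 and 519, 614 and 1099 UMIs at day 20. Each cell was therefore thinned to 500 UMIs, and shallower cells were left out, 38 at day 0, 25 at day 7 and 43 at day 20. At that depth the expected share averaged 1.29% ± 1.02 without light, 23.6% ± 4.72 after 7 days and 16.7% ± 3.78 after 20 days (mean ± SD of 3 libraries). The difference after light was 18.9 points (exact permutation p = 0.0119).

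The gap between day 7 and day 20 depended on the depth chosen. At 300 UMIs the shares were 20.5%, 13.1% and 14.6% at day 7 and 19.1%, 11.8% and 12.8% at day 20, and the days overlapped. At 500 UMIs they were 29.1%, 20.8% and 21.1% at day 7 and 20.2%, 12.7% and 17.2% at day 20, and the lowest library of day 7 stood just above the highest of day 20. At 1000 UMIs, where 124 cells of day 7 and 127 of day 20 were too shallow and left out, they were 33.7%, 33.3% and 32.8% against 17.96%, 9.07% and 17.9%, and the days lay far apart.

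Absence of microglial UMIs was more frequent among class II cells than among class II-low cells in each of the 4 depth ranges examined. Below 500 UMIs, 16 of 29 class II cells (55.2%) and 28 of 77 class II-low cells (36.4%) had none. From 1000 to fewer than 1500 UMIs the figures were 35 of 80 (43.8%) and 3 of 70 (4.29%), and from 1500 UMIs upward 14 of 137 (10.2%) and 1 of 78 (1.28%). These counts pool libraries and days, and class II-low cells came largely from day 0, where class II cells were few. Within days, at 500 UMIs, the share of class II cells without microglial UMIs averaged 44.8% ± 32.6 without light, 60.9% ± 2.63 after 7 days and 52.4% ± 3.32 after 20 days. That of class II-low cells averaged 14.0% ± 9.12, 48.3% ± 1.86 and 28.4% ± 3.16 (mean ± SD of 3 libraries). Class II-low cells of day 7 thus missed the 8 genes more often than those of day 0 at the same depth. At 1000 UMIs the means were 46.9% against 28.7% at day 7 and 32.1% against 9.89% at day 20, and at 300 UMIs they were 69.7% against 63.2% and 71.3% against 42.8%. The order was reversed in day 7 replicate 3 at 300 UMIs (61.1% against 64.5%) and in day 0 replicate 3 at all 3 depths.

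**Figure D2:**
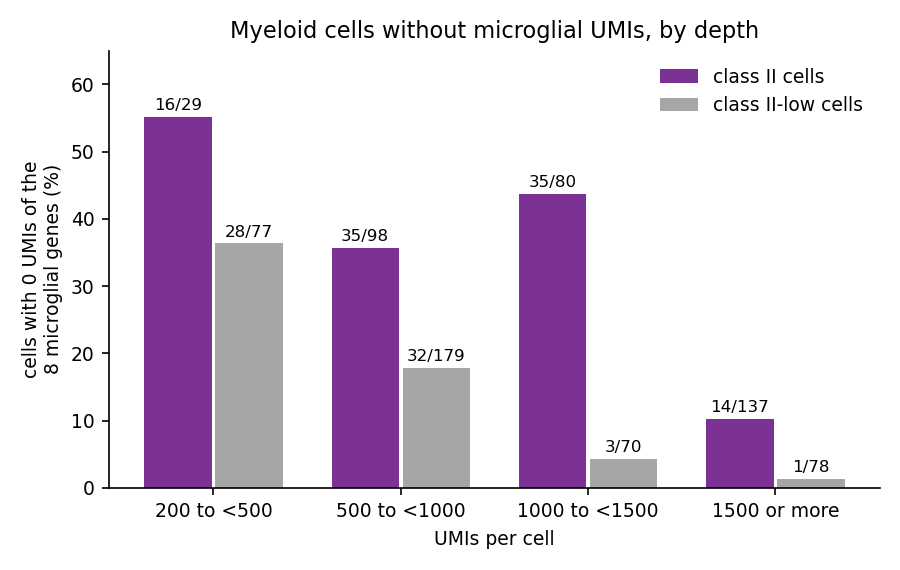
Percent of myeloid cells with 0 UMIs of the 8 microglial genes (y axis) by the number of UMIs per cell (x axis), for class II cells (at least 2 class II UMIs, purple) and class II-low cells (grey), all libraries pooled, with the number of cells above each bar. The percent falls with depth in class II-low cells from 36.4% to 1.28%, and class II cells are higher in each of the 4 depth ranges.

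Class II UMIs can also come from free RNA in the droplets. After light, 47 barcodes passed quality control but not the pan-myeloid condition (median depth 449 UMIs). Of these, 36.2% held a Cd74 UMI and 14.9% an H2-Aa UMI, against 95.9% and 67.0% of the 97 class II cells without microglial UMIs of the same days (median depth 990 UMIs), whose class II count was fixed by the rule. Among the 56 such barcodes of day 0 the figures were 7.14% and 1.79%.

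Class II transcripts spanned a wide range within the population, and their values are given as a description because the rule used them. The median cell had 7.5 class II UMIs (interquartile range 3.75 to 39, highest 504), which was 0.925% of its UMIs. At day 7 the median was 5 class II UMIs over 69 cells, and 19 cells (27.5%) had 20 or more. At day 20 the median was 12.5 over 28 cells, and 13 cells (46.4%) had 20 or more, at a lower median depth (590.5 against 1088 UMIs). The 33 cells with 20 or more class II UMIs held 88.1% of the 3375 class II UMIs of the population.

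Cd74 contributed 55.3% of these UMIs, H2-Ab1 16.7%, H2-Aa 14.7% and H2-Eb1 13.3%. In hybrid cells the 4 genes contributed in nearly the same proportions, 54.6%, 17.6%, 14.5% and 13.3%. Counts of 3′ ends are not divided by transcript length, so these are shares of UMIs.

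Summed over the cells of a library, the 4 class II genes reached 29895 and 17078 CPM at day 7 and 55953 and 42939 at day 20, where CPM scales the UMIs of a gene to the total of the summed cells. Hybrid cells of the same libraries, replicates 1 and 2 of each day, had 21315 and 9174 CPM at day 7 and 9183 and 4814 at day 20. These levels are a description, since the rule required 2 class II UMIs of both classes, and a fixed minimum is a larger share of a shallow cell. The class II cells without microglial UMIs were the shallower class in each of these libraries, with median depths of 1052 and 1179.5 UMIs at day 7 and 519 and 614 at day 20, against 1439 and 1458 UMIs at day 7 and 971 and 1814.5 at day 20 in hybrid cells. One cell of 6308 UMIs in day 7 replicate 1 held 504 of the 1471 class II UMIs of that library's cells (34.3%), and without it the level there was 22542 CPM.

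**Figure D3:**
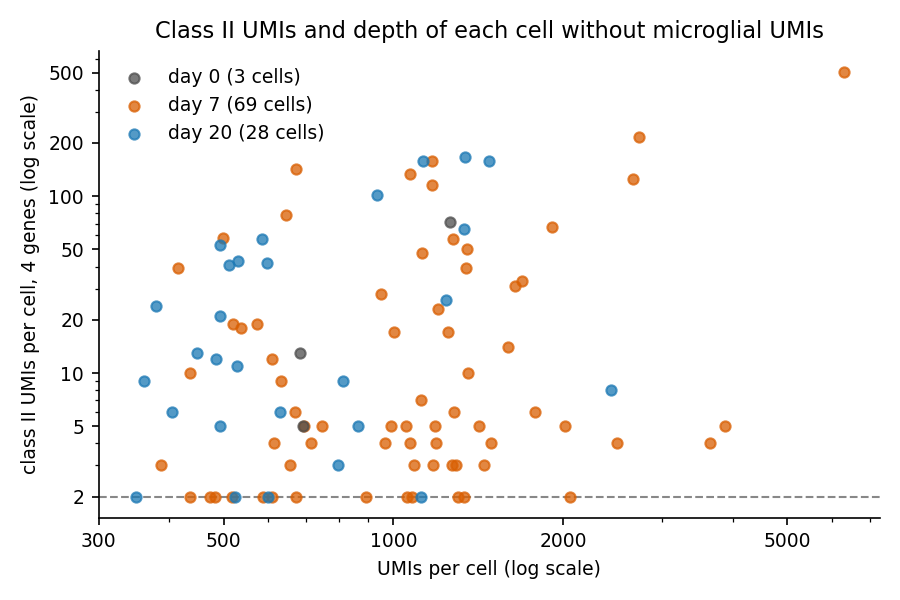
UMIs per cell (x axis, log scale) and class II UMIs over H2-Aa, H2-Ab1, H2-Eb1 and Cd74 (y axis, log scale) for each of the 100 class II cells without microglial UMIs, coloured by day. The dashed line marks the minimum of 2 class II UMIs, on which 17 cells lie, and cells of similar depth range from 2 to more than 100 class II UMIs.

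Markers of other cell types were then read in the 100 cells (110673 UMIs in all). All 8 measured B cell markers, among them Cd79a, Cd79b and Ms4a1, were at 0, where a count of 0 allows up to 27.1 CPM. Of the 10 monocyte markers, 6 were at 0, including Ly6c2 and Chil3, and Ms4a4c was the most abundant with 8 UMIs. The chemokine receptor Ccr2, which marks inflammatory monocytes, had 3 UMIs. Among 9 markers of border macrophages, 5 were at 0, including Mrc1 and Cd163, and the platelet factor gene Pf4 led with 9 UMIs. T and NK cell markers totalled 12 UMIs in 11 cells, led by Cd3d with 4.

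Dendritic cell markers totalled 67 UMIs in 13 cells. Ccr7, the receptor that guides migratory dendritic cells to lymph nodes, accounted for 45 of them in 2 cells, 39 UMIs in day 7 replicate 2 and 6 in day 7 replicate 3, while Zbtb46 and Cd209a were at 0. Neutrophil markers had 9 UMIs and proliferation markers 13, led by Csf3r and Stmn1. Macrophage markers had the highest total among the lists of monocyte-derived and lymphoid cells, 1125 UMIs in 92 cells. Lyz2, the lysozyme gene, contributed 887 of these UMIs in 87 cells. Of the 103 barcodes with fewer than 3 pan-myeloid UMIs, 20.4% held Lyz2.

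Rod photoreceptor transcripts were present in 34 cells, but 3 cells of day 7 replicate 1 held 403 of the 450 rod UMIs (89.6%). Without those 3 cells, the rod markers summed to 443.6 CPM.

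Transcripts of lens and Mueller glia, neither of which is a blood-derived cell, were found in more cells but at few UMIs each. The 8 lens markers totalled 66 UMIs in 37 cells, led by the crystallin gene Cryaa with 21, and 2 of the 8 were at 0. The 6 Mueller glia markers totalled 79 UMIs in 45 cells, led by the glutamine synthetase gene Glul with 45, and none was at 0. Erythrocyte markers had 1 UMI. Both lists were uneven in hybrid cells, the class used for comparison below. The lens markers summed to 12016 and 691 CPM at day 7 and 576 and 9.36 at day 20 in hybrid cells, against 955 and 453 CPM at day 7 and 95.3 and 109 at day 20. The Mueller glia markers summed to 438 and 673 CPM at day 7 and 5826 and 496 at day 20 in hybrid cells, against 447 and 582 CPM at day 7 and 858 and 652 at day 20. Day 7 replicate 1 thus stood out for the lens markers and day 20 replicate 1 for the Mueller glia markers. The comparisons below were repeated without cells rich in rod RNA or with Ccr7 UMIs, without cells with lymphocyte markers, and without cells with 5 or more UMIs of the lens or of the Mueller glia markers (5 of the 100 cells and 46 of the 244 hybrid cells).

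Levels were next compared with those of class II-low microglial cells, in sums per library over day 7 and day 20 replicates 1 and 2, which each held 10 or more cells of both classes. The sums covered 91 of the 100 cells and 92 class II-low microglial cells. The 16 genes of the rule were kept out of the tests, and the library was a block in the fit. Because the class II-low sums held 12012 to 36054 UMIs, 182 genes could be tested. edgeR's quasi-likelihood test called 10 of them (5.49%), 1 higher (0.549%) and 9 lower (4.95%). DESeq2 called 6 of the 10, and a fit without the library block called 5, not including Lyz2. With a filter of 3 UMIs per gene, 4615 genes were tested and 0 called. Over the alternatives the log2 difference of Cst3 ranged from −1.53 to −1.16 and that of Lyz2 from 0.67 to 1.32.

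Lyz2 was the gene called higher. It measured 8475 and 9833 CPM at day 7 and 4003 and 6849 at day 20 in class II cells without microglial UMIs and 5952 and 4079 CPM at day 7 and 1823 and 2496 at day 20 in class II-low microglial cells. The level was higher in all 4 libraries, although the range over libraries overlapped, and the log2 difference was 1.08 (SE 0.17, edgeR adjusted p = 0.00121). Lyz2 also passed in each of the 4 fits that left out 1 library.

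The genes called lower included 4 of the 6 tested genes of the microglial list outside the rule. Cst3 measured 6158 and 6404 CPM at day 7 and 7435 and 13371 at day 20, against 12622 and 16067 CPM at day 7 and 28809 and 35253 at day 20 in class II-low microglial cells. It was lower in all 4 libraries, although the highest value of the class II cells without microglial UMIs lay above the lowest of the class II-low cells. Cst3 differed by −1.40 (SE 0.19, edgeR adjusted p = 0.000571), C1qc, a chain of complement component C1q, by −0.82 (SE 0.15, edgeR adjusted p = 0.00407) and Trem2, the lipid receptor of activated microglia, by −0.96 (SE 0.25, edgeR adjusted p = 0.0443). The median log2 difference of the 6 list genes was −0.89, beside −0.04 over all 182 genes tested. C1qa and C1qb, the other members of the list with the most UMIs, differed by −0.43 and −0.56 and did not pass.

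Outside the list, Fcgr3, a low-affinity IgG receptor, measured 345 and 388 CPM at day 7 and 477 and 109 at day 20, against 1721 and 999 CPM at day 7 and 1167 and 1109 at day 20 in class II-low microglial cells. The values did not overlap, and the log2 difference was −1.90 (SE 0.34). In class II cells without microglial UMIs the day 20 values rested on few UMIs, as those sums held 10491 and 9199 UMIs in all. Also called lower were Ly86, the MD-1 partner of the receptor RP105 (−1.45, SE 0.24), the tetraspanin Cd81 (−1.27, SE 0.26), the lysosomal protease Ctsd (−1.10, SE 0.15) and B2m, the light chain of MHC class I (−0.51, SE 0.13). The adjusted p-values of these 5 genes from edgeR lay between 0.000571 for Ctsd and 0.0497 for B2m. B2m passed in 0 of the 4 fits without 1 library and Trem2 in 2 of them, whereas Cst3, Ctsd and Ly86 passed in all 4. Without day 7 replicate 1, the count of calls was 6 in place of 10.

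Most of these differences were smaller among barcodes listed in 1 library only, which left 32 class II cells without microglial UMIs and 29 class II-low microglial cells in replicate 1 of each day. With 2 libraries and 157 genes tested, edgeR called 1 gene (0.637%), Cst3, with a log2 difference of −1.16 (adjusted p = 0.0349). Cst3 measured 6208 CPM at day 7 and 9886 at day 20, against 12781 and 28098 CPM in class II-low microglial cells. Lyz2 measured 8663 CPM at day 7 and 4728 at day 20, against 6433 and 2269 CPM, a log2 difference of 0.67 (edgeR adjusted p = 0.996). B2m changed sign, at 0.063. Against hybrid cells and between days these barcodes left too few libraries of 10 or 5 cells for a test.

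Of the genes that did not pass, those with the smallest p upward were Ifitm3, an interferon-induced membrane protein (0.95, edgeR adjusted p = 0.203), Rpl36 (0.51), Gm10116 (0.41) and the ferritin light chain Ftl1 (0.40). Ms4a7, a membrane protein gene of macrophages, did not pass the filter on low counts, with 621 CPM ± 257 against 206 CPM ± 47.2 (SD, n = 4 libraries), and was higher in all 4. Apoe, the lipid carrier that disease-associated microglia secrete in quantity, was detected in 100 of the 100 cells. Of the 103 barcodes with fewer than 3 pan-myeloid UMIs, 77.7% held Apoe. Pooled over libraries, its level was 13829 CPM in those barcodes and 79658 CPM in the 100 cells. The level in those barcodes was not split by day, and 56 of them came from day 0, against 3 of the 100 cells. By library, Apoe measured 61599 and 78500.5 CPM at day 7 and 93223 and 94467 at day 20. In class II-low microglial cells it measured 77739.5 and 105728 CPM at day 7 and 47772 and 28762 at day 20. The 2 libraries of day 7 were lower and the 2 of day 20 higher in class II cells without microglial UMIs, and the fitted difference of 0.48 (SE 0.47, edgeR adjusted p = 0.750) did not pass.

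Hybrid cells, which share the class II condition and differ by the 8 microglial genes, were the closest comparison. The same 4 libraries gave 199 hybrid cells with 53522 to 216796 UMIs per sum, and 528 genes were tested. Few differences passed the test. edgeR called 1 gene (0.189%), lower, and 0 in each fit without 1 library, while 73 genes had an unadjusted p below 0.05, and DESeq2 called 8 genes (1.52%), all lower. Without cells rich in lens or Mueller glia RNA, edgeR called 2 genes of 415 (0.482%). Hybrid cells were deeper, and in cells under 1500 UMIs edgeR called 13 genes of 183 (7.1%), 2 higher and 11 lower, among them B2m (−0.45), H2-D1 (−0.66) and Cst3. Over cells of all depths Cst3 measured 8995 and 8482 CPM at day 7 and 24045 and 31213 at day 20 in hybrid cells, above the class II cells without microglial UMIs in all 4 libraries and below class II-low microglial cells in all 4.

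Csf1r, the receptor for the growth factors on which microglia and macrophages depend, measured 203 and 129 CPM at day 7 and 381 and 652 at day 20, against 577 and 729 CPM at day 7 and 1563 and 1704 at day 20 in hybrid cells. Its difference of −1.98 (SE 0.31, edgeR adjusted p = 0.0678) did not pass, but it did at −1.90 (edgeR adjusted p = 0.0150) without cells rich in lens or Mueller glia RNA.

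The next genes by p on the lower side were Lgmn, the asparaginyl endopeptidase of the class II processing pathway (−1.11, edgeR adjusted p = 0.0809), Jun (−2.79, adjusted p = 0.210) and C1qa (−0.63, adjusted p = 0.210). On the higher side they were the ferritin heavy chain Fth1 (0.54), Rplp1 (0.46), Rps20 (0.56), Rpl26 (0.42) and Gm10073 (0.57), with adjusted p-values of 0.294 to 0.309 in edgeR.

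**Figure D4:**
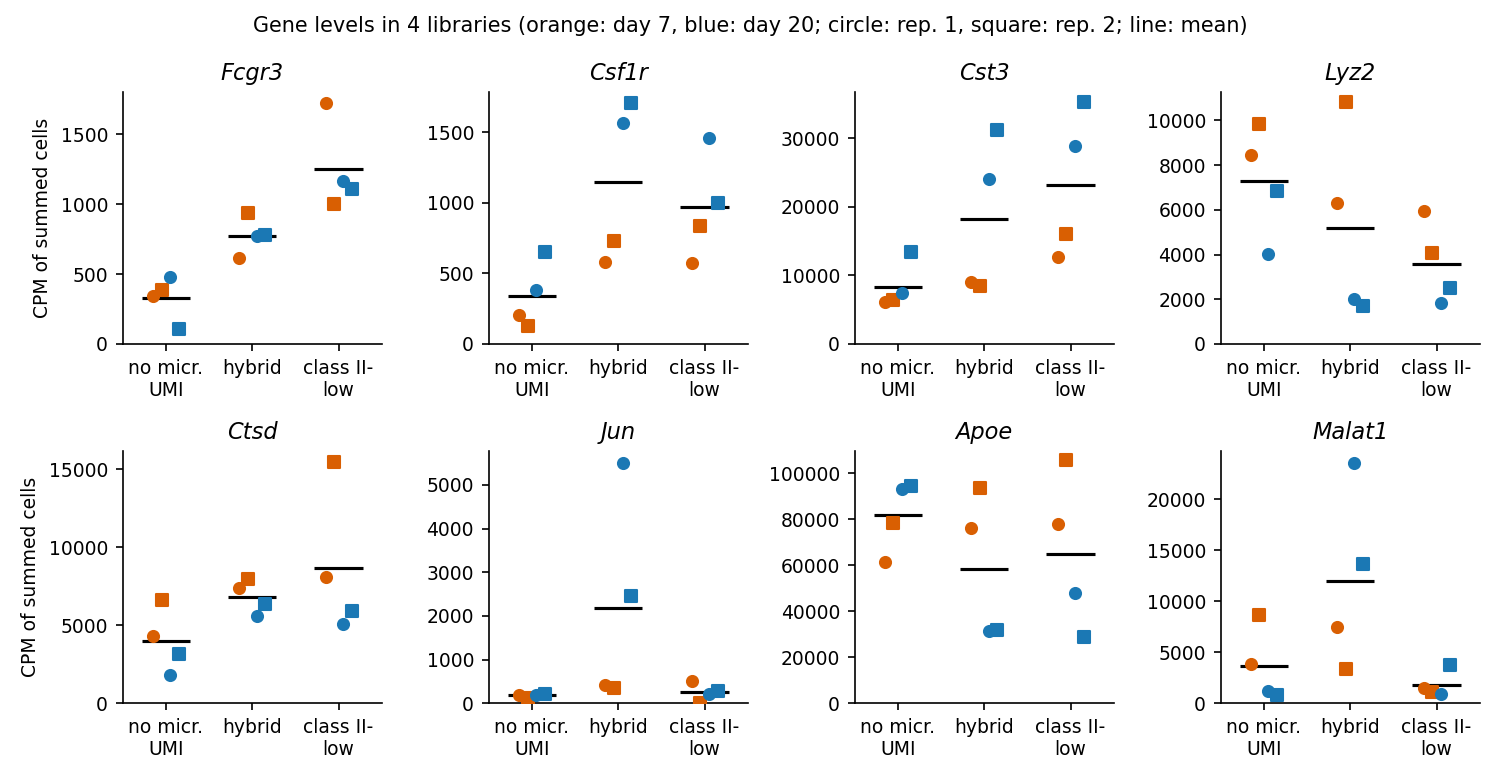
CPM of 8 genes in summed cells of day 7 (orange) and day 20 (blue) libraries, replicate 1 as circles and replicate 2 as squares, for class II cells without microglial UMIs, hybrid cells and class II-low microglial cells, with the mean of the 4 libraries as a line. Fcgr3 lies between 109 and 477 CPM in class II cells without microglial UMIs and at or above 613 CPM in every other sum.

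Read by group, 9 of the 10 tested genes of the microglial list lay lower than in hybrid cells, 1 of them past the threshold. The median log2 difference of this list was −0.84 beside −0.07 over all 528 genes. Hybrid cells were chosen for at least 1 microglial UMI, so this list was not independent of the selection. The 6 tested genes of class I presentation, among them B2m (−0.53), H2-D1 (−0.55), H2-K1 (−0.46) and the immunoproteasome subunit Psmb8 (−0.43), all had fitted differences below 0, with a median of −0.50 and 0 calls. Only B2m was lower in all 4 libraries among these 4. Psmb8 was lower in both day 7 libraries and higher in both of day 20 (477 and 435 CPM against 214 and 262 in hybrid cells), H2-D1 was higher in day 20 replicate 1 and H2-K1 in day 7 replicate 2. Of the class II pathway outside the rule, 3 genes of 16 were tested and had fitted differences below 0, Lgmn, the cathepsin Ctsl (−1.82) and H2-DMa (−0.45), a chain of the peptide exchange factor H2-DM, with 0 calls. H2-DMa was lower in both day 7 libraries and higher in both of day 20 (286 and 435 CPM against 181 and 375 in hybrid cells). The day 20 values of Psmb8 and H2-DMa rested on few UMIs, as those sums held 10491 and 9199 UMIs in all. H2-DMb1, the other chain of that factor, did not pass the filter on low counts and measured 416 CPM ± 282 against 183 CPM ± 79.6 (SD, n = 4 libraries).

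Genes that respond quickly to stimulation had fitted differences below 0 against hybrid cells, and none passed the edgeR test. The 8 tested immediate-early and heat shock genes all lay lower than in hybrid cells, with a median log2 difference of −1.72 and 0 calls. Fos measured 630.0 and 518 CPM at day 7 and 477 and 544 at day 20, against 839 and 523 CPM at day 7 and 5497 and 2098 at day 20 in hybrid cells. Junb (−2.05), Ier2 (−1.61) and Jund (−1.89) showed the same arrangement, with the hybrid cells of day 20 far above all other sums. Without cells rich in lens or Mueller glia RNA these differences were smaller, −0.60 for Fos, −1.03 for Junb, −1.03 for Ier2 and −0.81 for Jund. The nuclear RNA Malat1 was also high in hybrid cells of day 20, at 23567 and 13617 CPM against 1239 and 761 in class II cells without microglial UMIs. At day 7 it measured 7454 and 3326 CPM in hybrid cells against 3800 and 8668. The whole list summed to 3759.8 and 1844 CPM at day 7 and 1906 and 3587 at day 20 in class II cells without microglial UMIs and to 4603 and 3158 CPM at day 7 and 28784 and 16370 at day 20 in hybrid cells. Against class II-low microglial cells the sum was higher in 4 of 4 libraries, 2774 CPM ± 1041 against 1787 CPM ± 591 (SD, n = 4), and no gene of the list could be tested there. Day 7 replicate 3 and day 20 replicate 3 held too few cells for these sums. In the former, Fos, Jun and Junb were higher than in hybrid cells (9, 11 and 6 of 6027 UMIs against 16, 10 and 10 of 15991). In the latter they were lower (2, 0 and 1 of 2198 UMIs against 25, 9 and 24 of 19594).

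Most of the chemokine and cytokine genes that could be tested had fitted differences below 0 against hybrid cells. Of 6 tested chemokine and cytokine genes, 5 lay lower and 0 passed, with a median of −1.40. Ccl4, which recruits monocytes and T cells, measured 1280.4 and 582 CPM at day 7 and 572 and 1304 at day 20, against 1983 and 617 CPM at day 7 and 7603 and 12006 at day 20 in hybrid cells, a difference of −1.94 (SE 0.64, edgeR adjusted p = 0.309). Over the alternatives the difference of Ccl4 ranged from −2.84 to −0.54, the latter in cells under 1500 UMIs. Outside these sums, the 4 cells of day 7 replicate 3 held 117 Ccl4 UMIs of 6027, against 57 of 15991 in hybrid cells. In day 20 replicate 3 the counts were 0 of 2198 against 21 of 19594. Ccl3 differed by −2.28, and by −3.34 to −1.73 over the alternatives. Ccl5, a ligand of T cell chemokine receptors, measured 183 and 615 CPM at day 7 and 1811 and 0 at day 20, against 1287 and 336 CPM at day 7 and 280 and 2266 at day 20 in hybrid cells, so it was lower in 2 libraries and higher in 2, and its fitted difference of −0.77 turned to 0.20 without cells with lymphocyte markers. Cxcl16, a membrane-bound chemokine of antigen-presenting cells, lay higher at 0.74 and did not pass either.

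The groups that lay higher were small. Of the macrophage list, 5 of 12 genes were tested against hybrid cells, 3 lay higher and 0 passed, with a median of 0.57. Lyz2 differed by 0.59, Ms4a7 by 0.57, the galectin Lgals3 by 0.76 and Crip1 by −0.46. The 3 tested interferon-stimulated genes, Bst2 (0.55), Ifitm3 (0.52) and Irf7 (0.02), had fitted differences above 0 with 0 calls. Irf7 turned below 0 in 3 alternatives, down to −0.24. Of the disease-associated list, 9 genes were tested, 4 lay higher and 5 lower, with a median of −0.21. Apoe was lower in both day 7 libraries (76316 and 93438 CPM in hybrid cells) and higher in both of day 20 (31566 and 31888 CPM in hybrid cells), with a fitted difference of 0.44. Ctsd differed by −1.04, the cathepsin Ctsb by −0.46 and the tetraspanin Cd63 by −0.21, and none of the 9 passed. Ribosomal protein transcripts summed to 275213 CPM ± 13559 in class II cells without microglial UMIs, 201808 CPM ± 57943 in hybrid cells and 275733 CPM ± 7033 in class II-low microglial cells (SD, n = 4).

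**Figure D5:**
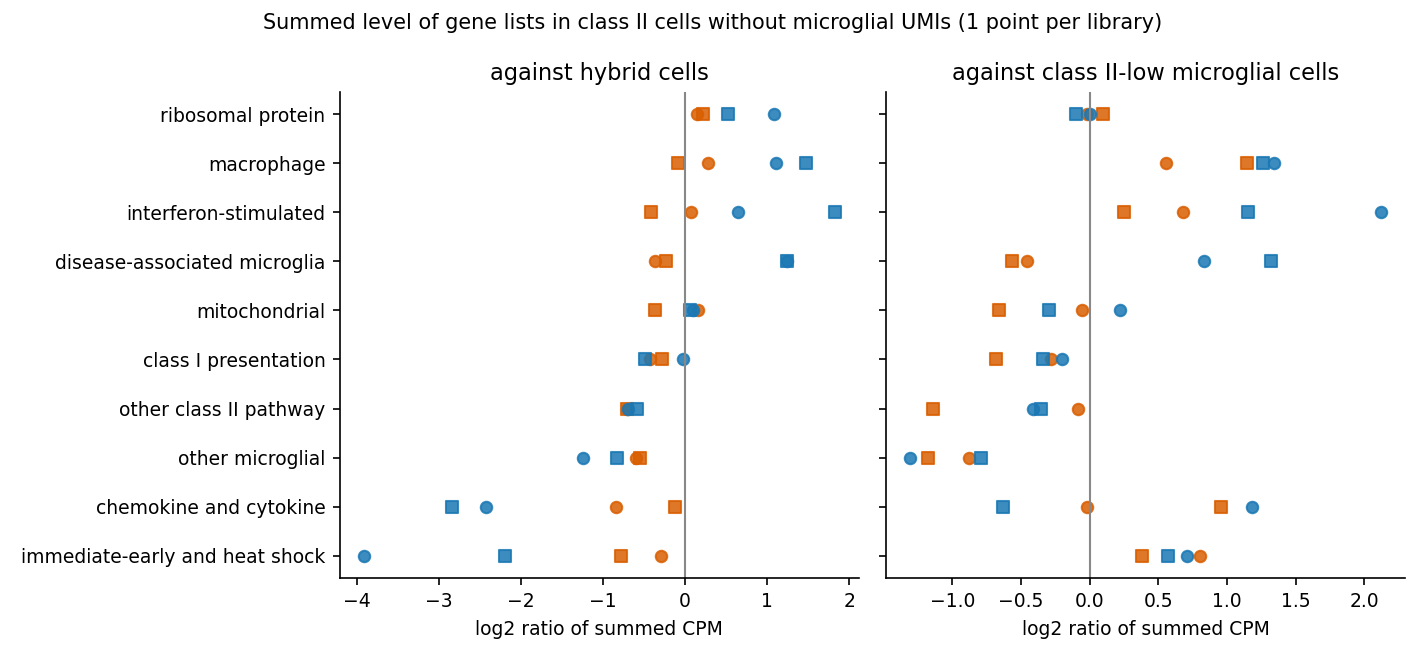
Log2 ratio of summed CPM of 10 gene lists between class II cells without microglial UMIs and hybrid cells (left) or class II-low microglial cells (right), 1 point per library, day 7 in orange and day 20 in blue, replicate 1 as circles and replicate 2 as squares. Immediate-early, chemokine and microglial genes lie below 0 against hybrid cells in all 4 libraries, and immediate-early genes lie above 0 against class II-low microglial cells.

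Between days, the cells of day 20 were compared with those of day 7 in the same 4 libraries, 2 against 2. Of 248 tested genes, edgeR called 0 (0.0%), although 34 had an unadjusted p below 0.05, and DESeq2 called 2 (0.806%). Malat1, a nuclear long non-coding RNA, measured 3800.4 and 8668 CPM at day 7 and 1239 and 761 at day 20 and differed by −2.57 on the log2 scale (SE 0.51, edgeR adjusted p = 0.102). The libraries of the days did not overlap, and Malat1 passed in each of the 4 fits without 1 library. Without cells rich in lens or Mueller glia RNA its difference was −1.52 (edgeR adjusted p = 0.205). The difference of Malat1 ranged from −3.17 to −0.65 over the alternatives. Fabp5, a fatty acid binding protein, measured 528 and 776 CPM at day 7 and 0 and 0 at day 20, which against a floor of 3 UMIs over the 2 libraries of day 20 is a drop of at least 4.10-fold (edgeR adjusted p = 0.111). Ctsd differed by −1.12, Lyz2 by −0.76 and Rps27 by −0.62.

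The genes with the smallest p upward at day 20 were C1qa (1.00, edgeR adjusted p = 0.102), the respiratory chain subunit Cox7b (2.34), H2-DMb1 (1.89), mt-Atp6 (0.65) and the cholesterol carrier Npc2 (0.68). Over the alternatives C1qa ranged from 0.42 to 1.19, mt-Atp6 from 0.073 to 0.87 and Npc2 from 0.10 to 0.71. C1qa measured 3292 and 3267 CPM at day 7 and 5529 and 7609.5 at day 20, without overlap. All 6 tested genes of the microglial list lay higher at day 20, with a median log2 difference of 0.58 beside −0.02 over all 248 genes and 0 calls. The tested mitochondrial transcripts also lay higher, from 0.02 for mt-Cytb to 0.92 for mt-Co2 with 0 calls, while the nuclear RNA Malat1 differed by −2.57. The 2 tested genes of the class II pathway, Lgmn (1.28) and H2-DMb1, lay higher as well, and the 3 tested class I genes and 3 tested macrophage genes lay lower, with medians of −0.51 and −0.51. Without the 3 rod-rich and 2 Ccr7 cells, edgeR called 13 genes (5.35% of those tested), 8 higher and 5 lower at day 20, among them Malat1, Fabp5, Ctsd, Lyz2 and Rps27 on the lower side. edgeR called 3 genes without day 7 replicate 1, 6 without day 7 replicate 2, 10 without day 20 replicate 1 and 20 without day 20 replicate 2.

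Within the population, levels of some other transcripts were read by class II content. Pooled over libraries, Malat1 measured 1105 CPM in the 33 cells with 2 to 4 class II UMIs, 4186 CPM in the 34 with 5 to 19 and 10609 CPM in the 33 with 20 or more, while Ctsd went from 7098 to 4918 and 1899 CPM. Lgals3 measured 465, 790.3 and 189.9 CPM, and Lyz2 7593, 11679 and 5387 CPM, in the same order. Median depths were 968, 720 and 1171 UMIs, and 28, 22 and 19 of these cells came from day 7. The order held for Ctsd within day 7 (7391, 5882 and 1944 CPM), within day 20 (4423, 2279 and 1812 CPM) and within day 7 replicate 1 (5715, 5496 and 2299 CPM), on 15 to 229 UMIs a value. That of Malat1 held within day 7 (1162, 5369 and 14412 CPM) but not within day 7 replicate 1 (2021, 523 and 7664 CPM), and within day 20 it rested on 2, 6 and 15 UMIs. The cells share libraries and class II UMIs are part of each total, so no test was made of these values.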

How the data were processed

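Libraries were processed by the authors with Cell Ranger (mm10, per the submitters' processing notes), and the deposited values are raw UMI counts per gene and barcode. Groups were taken from the treatment labels. These give days, as does the study, whereas sample titles give hours. The members and gene lists were chosen with earlier results of these data known. Barcodes were kept in the library where they had the most UMIs. Doublets were not called. Two-sided exact permutation tests compared the shares of libraries, after thinning to 500 UMIs by the exact hypergeometric expectation as well, and adjusted by the Benjamini-Hochberg method. UMIs were summed per library and class. Genes kept by edgeR's filterByExpr were tested with edgeR 4.0.16 (R 4.3.3, limma 3.58.1; TMM, quasi-likelihood test, library as block between classes) at a Benjamini-Hochberg adjusted p of 0.05, with DESeq2 1.42.0 as an alternative. The 16 rule genes stayed in library totals and out of tests. Between classes, libraries needed 10 cells of each; between days, 5 members. Genes named in the text were the 10 largest log2 changes in each direction among those past the threshold with one sign in every library (between days, libraries without overlap), or, with fewer than 5, the 5 smallest p, and in each list the 4 genes with the most UMIs. Any other gene was chosen after its values were seen. The values of a few genes are not reported here. Tests and thinning were checked on simulated data. Totals of 9199 to 216796 UMIs per sum limit precision, and intervals cover counting error only. Alternatives are given in the closing section.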

Additional observations from a re-analysis of the deposited data

Results flagged for a closer look

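Differences that went opposite ways at the 2 days are given here as mean log2 differences over day 7 replicates 1 and 2 minus the same over day 20 replicates 1 and 2. None of them was tested. Apoe was lower than in hybrid cells in both day 7 libraries and higher in both day 20 libraries, which gave −1.84, and against class II-low microglial cells it gave −1.72. The disease-associated list, in which Apoe holds most UMIs, gave −1.54 and −1.59 in the same comparisons. H2-DMa gave −1.18 and Psmb8 −2.03 against hybrid cells, on 24 and 30 UMIs in the class II cells without microglial UMIs. Their sums of day 20 held 10491 and 9199 UMIs in all, so the day 20 side of both genes rested on few UMIs, near the floor. H2-D1, a class I heavy chain, gave −1.06 against class II-low microglial cells.

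Class II UMIs also appeared outside the myeloid cells. Of 103 barcodes that passed quality control but held fewer than 3 pan-myeloid UMIs, 13 had 2 or more class II UMIs. They numbered 0 of 56 at day 0, where a count of 0 allows up to 5.36%, 8 of 25 at day 7 and 5 of 22 at day 20, at median depths of 637, 426 and 579 UMIs.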

How the results depend on the processing

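The rise of the share after light kept its direction in all alternatives, but its call did not hold in most. Adjusted over the 4 comparisons, p stayed below 0.05 in 3 of 17 alternatives, with all deposited entries counted and with class II minima of 1 or 4 UMIs (0.0476 each). It was 0.0952 with at most 1 microglial UMI or without lymphocyte markers, and 0.0714 to 0.133 in the 9 that left out 1 library. With 500 genes per cell the rise was 18.2 percentage points (exact permutation p = 0.131), that of day 20 over day 0 4.31 points (exact permutation p = 0.4) and day 20 minus day 7 −27.7 points, and the rise after light was among barcodes of 1 library 19.7 points (exact permutation p = 0.0833, chosen after seeing the data). Counts of changed genes moved more. Against hybrid cells, edgeR called 1 gene, DESeq2 8, a filter of 3 UMIs 29, no library block 0, leaving out cells with lymphocyte markers 3, cells under 1500 UMIs 13 of 183, hybrid cells with 3 or more microglial UMIs 3 leaving out rod-rich and Ccr7 cells 6 and leaving out lens-rich and Mueller-rich cells 2. Leaving out 1 library gave 0 calls each time. Against class II-low microglial cells, edgeR called 10, DESeq2 6, a filter of 3 UMIs 0 (60 at an unadjusted p under 0.05) no library block 5 and barcodes of 1 library 1, where Rpl36 turned to −0.066 and B2m to 0.063. Leaving out 1 library gave 6 to 15. Between days, edgeR called 0, DESeq2 2, a filter of 3 UMIs 37, cells under 1500 UMIs 4 and leaving out rod-rich and Ccr7 cells 13. Leaving out 1 library gave 3 to 20, where a lone library of a day is assumed to vary like the other day. The settings on 1500 UMIs, 3 microglial UMIs, barcodes of 1 library, and rod-rich, Ccr7, lens-rich or Mueller-rich cells were chosen after seeing the data. The cause of these shifts was not tested. Against hybrid cells, leaving out cells with lymphocyte markers turned Ccl5 to 0.20, Crip1 to 0.19 and Irf7 to −0.11, and a filter of 3 UMIs turned Irf7 to −0.24. Leaving out 1 library gave −1.78 to 0.11 for Ccl5, −0.38 to 0.022 for Cd63, −1.12 to 0.0070 for H2-K1, −0.71 to 0.065 for Psmb8 and −0.023 to 0.070 for Irf7. None of these genes passed the test. Apart from mt-Cytb and mt-Co2, the other genes whose differences are printed above kept their direction in every alternative that could test them. The directions of mt-Cytb and mt-Co2 were not followed over the alternatives. Barcodes of 1 library left too few cells for the other gene comparisons. Depth limited the tests to 182, 528 and 248 genes.

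With the replicate number as a replicate block, the count between days was 14, and the share after light had an exact permutation p of 0.037, the smallest that 27 arrangements allow, which became 0.148 after adjustment over the 4 comparisons and lost the call. Deviations of same-numbered libraries correlated above 0.1 in 2 of 9 pairs (−0.193 to 0.119), so the numbers were not taken to pair samples.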
